A study of Danio rerio with 2 samples.

Results

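The genes described here encode voltage-gated sodium, calcium and potassium channels, the auxiliary subunits of those channels, and the potassium channels that open without a voltage sensor. Members were taken by symbol, as genes starting with kcn, cacna, cacnb, cacng, or scn followed by a digit, that had at least 50 unique molecular identifiers (UMIs, each marking 1 captured transcript) over all cells. Of 22077 genes in the filtered table, 156 had such a symbol, 104 of them reached the minimum and were kept, and the other 52 lay below it. The members were 7 sodium channel pore subunits, 6 sodium channel beta subunits, 12 calcium channel pore subunits, 4 alpha2delta, 6 beta and 9 gamma subunits of calcium channels, 28 voltage-gated potassium channels, 7 potassium channel auxiliary subunits, 6 calcium-activated potassium channels, 11 inward rectifiers and 8 2-pore channels.

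Both groups were trunks of Tg(mitfa:GFP;crestin:mCherry) zebrafish embryos collected at 72 h post-fertilisation (hpf), with no other allele named. In this line the mitfa promoter drives GFP in the pigment lineage and the crestin promoter drives mCherry across the neural crest. All embryos, controls included, received MoTP, a compound that kills melanocytes, from 24 hpf until it was washed out at 64 hpf, which left 8 h of regeneration. They were treated together with either DMSO as the vehicle or CVT-10216, an inhibitor of Aldh2. GFP+, mCherry+ and double-positive cells of many pooled embryos were sorted into 1 droplet library per condition, so no difference between DMSO and CVT-10216 had a replicate check and none was tested.

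Voltage-gated sodium channels carry the upstroke of the action potential, voltage-gated calcium channels turn depolarisation into transmitter release or contraction, and voltage-gated potassium channels end the spike. Inward rectifiers and 2-pore channels set the resting potential in neurons and in cells that do not fire, such as glia and pigment cells. In zebrafish, pigment cells need the inward rectifier kcnj13 to form normal stripes, so channel genes are of interest in the pigment lineage as well as in the nervous system. Teleosts carry many of these genes as a and b copies. Where copies are near-identical, reads could be split between them, and the levels of such pairs are uncertain.

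Cells were grouped by 8 gates on raw UMIs of marker genes. A cell entered the vip + galn gate with at least 6 UMIs of the neuropeptide genes vip and galn together and at least 1 of the enteric neuron factor phox2bb. The slc6a5 gate needed 2 UMIs of slc6a5, the glycine transporter of inhibitory neurons, and the isl1 + prph gate needed 4 UMIs of isl1 and prph together with at least 1 of each. The fabp7a gate needed 6 UMIs of this fatty acid binding protein gene of glia and progenitors, and the dct (10), gch2 (6), pnp4a (20) and actc1b (50) gates stood for melanophore, xanthophore, iridophore and muscle genes. DMSO and CVT-10216 gave 196 and 139 cells in the vip + galn gate, 142 and 186 in the slc6a5 gate, 43 and 54 in the isl1 + prph gate, 482 and 592 in the fabp7a gate, 59 and 41 in the dct gate, 739 and 1614 in the gch2 gate, 560 and 1507 in the pnp4a gate, and 4 and 22 in the actc1b gate. A further 1097 cells passed more than 1 gate and were left out of all gates, and 3806 passed none. This took unequal shares of the gates in DMSO and CVT-10216. The vip + galn gate kept 196 of 338 and 139 of 378 cells that passed it. The isl1 + prph gate kept 43 of 83 and 54 of 191, and the fabp7a gate 482 of 675 and 592 of 981. A macrophage gate of 89 and 124 cells served as background, on the assumption that these cells hold little channel RNA other than free RNA from the droplets. The assumption was not tested, and the member scn4bb was higher there than in any of the 8 gates.

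The libraries held 4488 and 6795 filtered cells with 58976443 and 86348575 UMIs, and medians of 8581 and 9487 UMIs per cell. They shared 4 barcodes. Median depth differed between the gates, from 3137.5 UMIs per cell in the slc6a5 gate with DMSO to 19034.5 in the actc1b gate with CVT-10216. The defining markers of the dct, gch2, pnp4a, actc1b, slc6a5 and vip + galn gates were present. The isl1 + prph gate held both motor genes (mnx1, chata, slc18a3a) and sensory genes (ntrk3a, pou4f1, drgx), so it is called here by its genes alone. The fabp7a gate as a whole carried more of the enteric neuron list (2988 and 3030 CPM over 9 genes) than of the glial list (1076 and 1401 CPM). It is therefore not called glial. Of the glial list, mpz (0 and 1.29 CPM) and plp1b (0.846 and 3.29 CPM) were low there, and other genes made up nearly all of the sum. The enteric list did not separate the neuron types, with 8505 and 11229 CPM in the vip + galn gate, 9656 and 7910 CPM in the slc6a5 gate and 9751 and 8516 CPM in the isl1 + prph gate. The isl1 + prph neuron list did not mark its own gate alone either. It summed to 5987 and 5210 CPM there and to 6403 and 5722.5 CPM in the slc6a5 gate. Of the cells of the fabp7a gate, 312 and 294 held a UMI of phox2bb, itself a gene of the enteric list, and 170 and 298 did not. Those without it had more of the glial list (3178 and 2477 CPM) than of the enteric list (844 and 1038 CPM). Those with it had less of the glial list (847 and 1045 CPM) than of the enteric list (3221 and 3688 CPM).

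Levels are given as CPM, the UMIs of a gene scaled to a total of 1000000 UMIs over all cells of a gate in 1 library, with 95% Poisson intervals that cover counting error only. Each molecule was counted once at its 3′ end, so levels were not scaled by gene length. Paired values come in the order DMSO, then CVT-10216. Most genes named were chosen by a rule given with the processing, and the other members named singly were chosen after their values were seen.

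Of the 8 gates, the neuron gates had the highest channel levels. The summed level of all 104 members was 864 and 1167 CPM in the vip + galn gate, 1856 and 1740 CPM in the slc6a5 gate, and 2132 and 1682 CPM in the isl1 + prph gate. The fabp7a gate followed with 477 and 984 CPM, of which the single gene scn4ab made up 249.6 and 579.5 CPM. The pigment gates lay between 113 and 270.2 CPM, the actc1b gate at 301 and 338 CPM, and the macrophage gate at 69.3 and 58.6 CPM. Within each library the 3 neuron gates therefore held the highest sums of the 8 gates. Within the fabp7a gate, the cells without a phox2bb UMI had 1231 and 1318 CPM, above the vip + galn gate in both libraries, and those with one had 395 and 874 CPM. A large part of the sum without phox2bb was scn4ab, whose levels are given below. The rest of that sum lay below the vip + galn gate in both libraries. The members were rare transcripts, with a median of 199 UMIs over all cells against 1099 UMIs for all 17397 genes that reached the same minimum. Of all 64635 UMIs of the members, 48.5% lay in cells of a single gate, 32.2% in cells past several gates and 19.3% in cells past none.

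**Figure D1:**
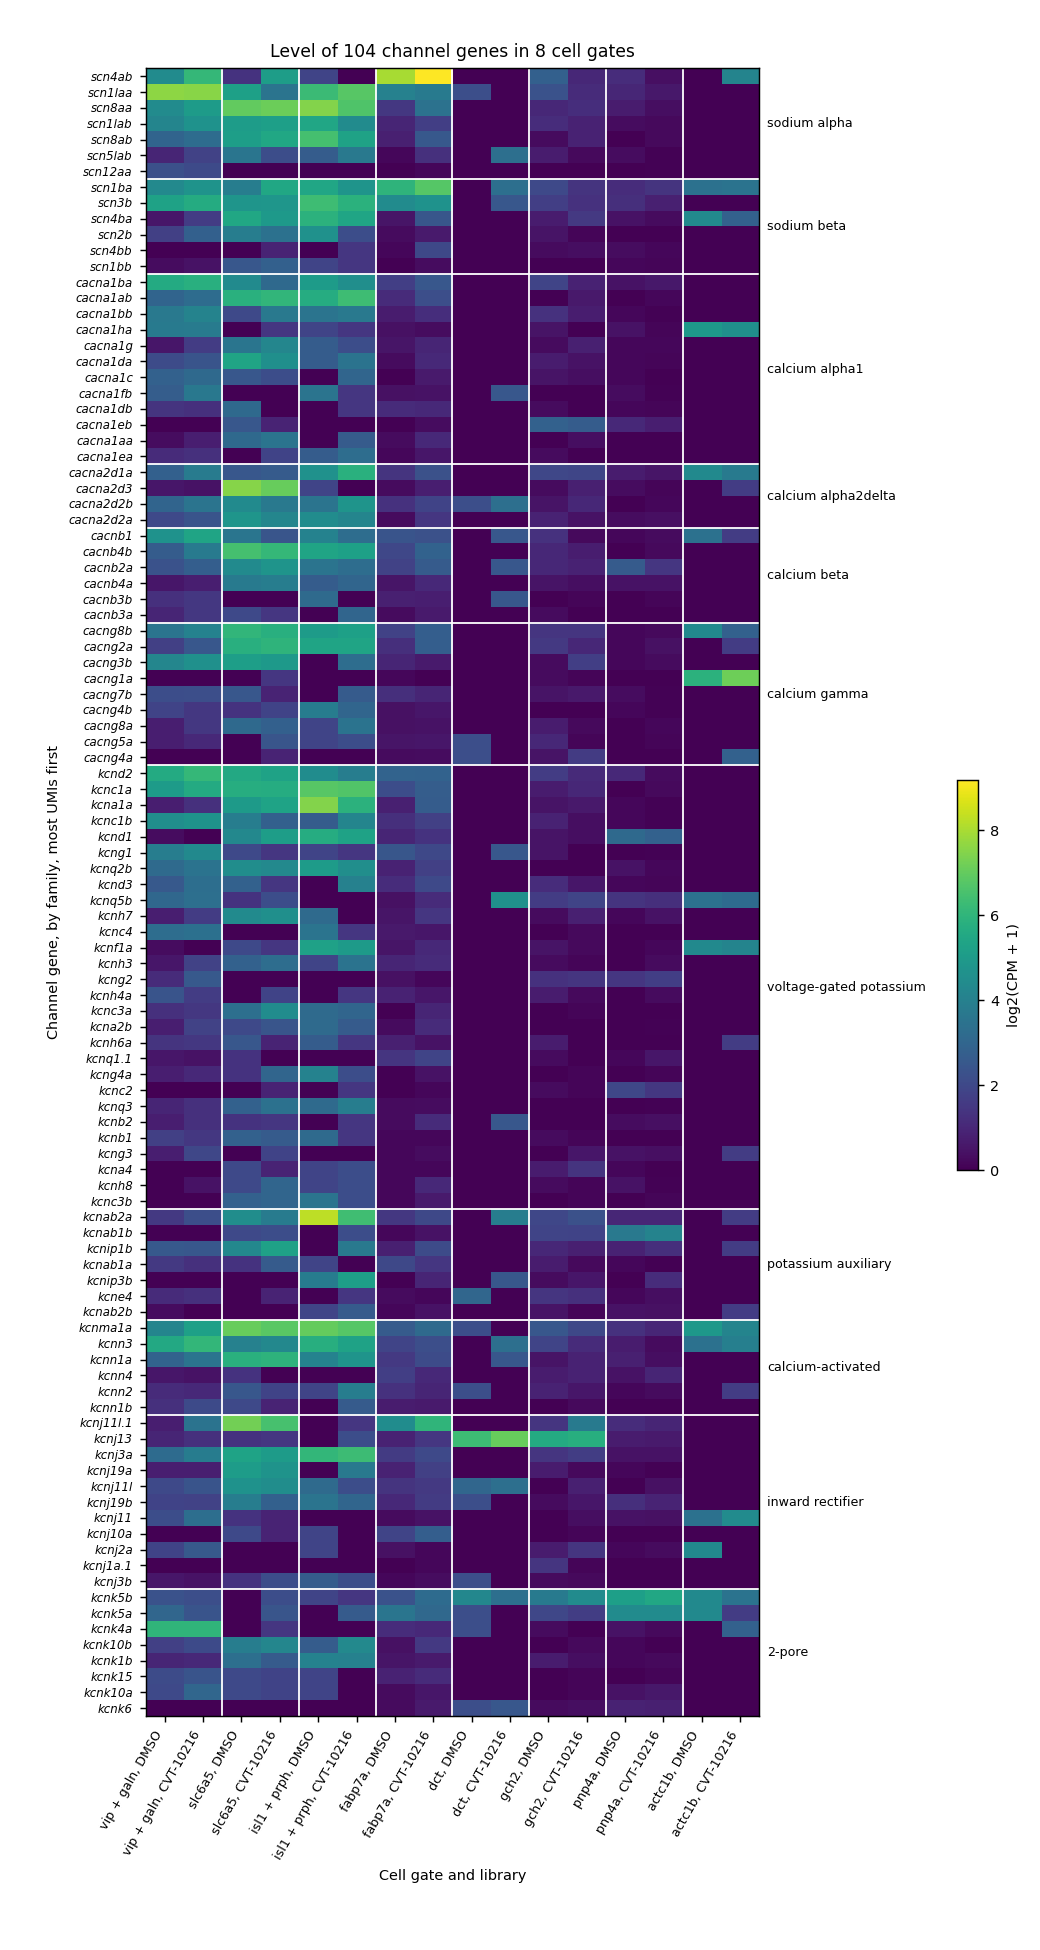
Level of each of the 104 members (rows, by family and with the most UMIs first) in 8 gates and 2 libraries (columns), as log2(CPM + 1) on a colour scale. The 6 columns of the neuron gates are the brightest over most families, and single bright cells in the fabp7a, dct, gch2, pnp4a and actc1b columns mark scn4ab, kcnj13, kcnk5b and cacng1a.

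The gates were also pooled into neurons (the vip + galn, slc6a5 and isl1 + prph gates), fabp7a cells and pigment cells (the dct, gch2 and pnp4a gates). Genes with at least 20 UMIs in the 2 pools together were compared. The median member stood 4.38 (DMSO, 59 members) and 4.81 (CVT-10216, 78 members) higher in the neuron pool than in the pigment pool on the log2 scale. Over all genes compared the same medians were 0.40 and 0.49. Against the fabp7a pool the neuron pool was higher by a median of 2.91 and 2.27 for the members and by 0.09 and 0.14 for all genes. The fabp7a pool in turn stood above the pigment pool by 1.23 and 2.52 for the members and by 0.26 and 0.40 for all genes.

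A member was called particular to a gate where its level was at least 4 times that of the next gate in each library. The same gate had to be on top in both, with at least 10 UMIs, and any gate without a UMI was set to 3 UMIs. Only 3 of 104 members met this with all 8 gates, beside 1.71% of all genes. They were scn4ab in the fabp7a gate (0.0115% of all genes), cacna2d3 in the slc6a5 gate (0.149%) and kcnab2a in the isl1 + prph gate (0.0862%). The share of 3 in 104 lay near the background. The actc1b gate had only 4 cells with DMSO, so that 3 UMIs there already stood for 29.1 CPM. When it was left out, a choice made after the data were seen, 4 members were called beside 1.62% of genes, with kcnk4a of the vip + galn gate (0.092%) added. The calls did not rest evenly on the cells. With the richest cell of each gate left out for each gene, kcnab2a was no longer called, while scn4ab, kcnk4a and cacna2d3 were, together with kcnj11l in the slc6a5 gate. The call of scn4ab ended when cells past several gates, which held 31.4% of its UMIs, were placed by their largest marker, with 241.8 and 515 CPM in the fabp7a gate against 39.9 and 130.5 CPM in the vip + galn gate.

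Between pools the same rule called 2 of 104 members with the muscle cells in, scn4ab for the fabp7a pool (0.0115% of all genes) and scn1laa for the neuron pool (0.558%), beside 2.41% of all genes in any pool. Without the muscle cells it called 54 of 104 members beside 9.34% of genes. The neuron pool held 48 of these (5.6% of all genes), the pigment pool 4 (3.34%) and the fabp7a pool 2 (0.402%). By family, the neuron pool was called for 8 of 12 calcium channel pore subunits, 4 of 4 alpha2delta subunits, 4 of 7 sodium channel pore subunits, 12 of 28 voltage-gated potassium channels and 3 of 6 calcium-activated channels. Most UMIs of this pool came from the vip + galn gate (4282036 and 2811542). The slc6a5 gate gave 642829 and 1143730, and the isl1 + prph gate 374825 and 580186. A pool call did not need a high level in each neuron gate. kcnk4a and cacna2d3, both called, were each high in a single neuron gate. The pigment pool was called for kcnab1b, kcnk5b, kcnj13 and cacna1eb, and the fabp7a pool for scn4ab and kcnj10a. The count was 45 without the cells above the 98th percentile of UMIs (8.96% of all genes) and 51 without each gene's richest cell (9.71%). It was 29 after every cell was thinned to 4000 UMIs, where 6.97% of all genes were called.

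Sodium channel pore subunits separated the neuron gates from the fabp7a gate by gene. The most abundant member of all was scn4ab, with 12425 UMIs, an orthologue of the sodium channel of mammalian skeletal muscle. Its level in the fabp7a gate was 249.6 CPM (95% interval 239.6 to 259.8) with DMSO and 579.5 CPM (563 to 596) with CVT-10216. In the vip + galn gate scn4ab reached 20.6 and 68.3 CPM, and in the slc6a5 gate 1.56 and 33.2 CPM. The second of these slc6a5 values came from 38 UMIs, of which 32 lay in 1 cell. The isl1 + prph gate had 2.67 and 0 CPM of scn4ab, the dct gate 0 and 0, the gch2 gate 6.03 and 1.03, the pnp4a gate 1.22 and 0.293, and the macrophage background 0 and 0.630 CPM. The muscle cells, which the gene is best known from, held 0 UMIs in 4 cells and 8 UMIs (16.6 CPM) in 22 cells. The interval of the fabp7a gate thus lay above that of every other gate in both libraries, and no gate of pigment cells exceeded 6.03 CPM.

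The scn4ab transcripts were concentrated in few cells. In the fabp7a gate 43.4% and 52.5% of cells had a UMI of scn4ab (35.5% and 46.8% after thinning to 4000 UMIs, which left 394 and 483 cells), against 0% and 0.806% of macrophages. The medians behind these shares were 9179 and 8338 UMIs per cell in the fabp7a gate and 9933 and 11537 in the macrophage gate. Cells with at least 10 UMIs of scn4ab made up 17.8% (interval 14.5 to 21.6) and 29.2% (25.6 to 33.1) of the gate and held 80.3% and 89.3% of its scn4ab there. Over each library, the fabp7a gate held 63.3% and 56.8% of all scn4ab UMIs, and a large part of the rest lay in cells past several gates. Among fabp7a cells, the level was 723 and 661 CPM without a phox2bb UMI and 198 and 552 CPM with one, so scn4ab was found on both sides of that division.

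The genes named here were chosen after the values were seen. The cells rich in scn4ab were taken from all cells, gated or not, and were set against the fabp7a cells that were not rich. Of the 129 and 302 rich cells, 86 and 173 lay in the fabp7a gate. Against all cells, their leading genes after scn4ab were p2rx3b, an ATP-gated channel gene of sensory neurons (26.0 and 26.5 CPM, against 0.692 and 1.71 CPM in the other fabp7a cells), syt5a, a synaptotagmin gene (32.9 and 30.0 against 1.96 and 4.67 CPM), htr3a, a serotonin-gated channel gene (21.7 and 37.2 against 0.115 and 3.11 CPM), and entpd3, an ectonucleotidase gene (151 and 142 against 19.2 and 32.0 CPM). The glial genes gfap (43.0 and 53.4 CPM) and mbpa (0.530 and 3.96 CPM) were lower there than in the other fabp7a cells (210.1 and 363 CPM, and 13.8 and 96.7 CPM). Other genes of the glial list were not lower in both libraries. foxd3 had 664 and 639 against 541 and 553 CPM, and sox10 had 238 and 233 against 201 and 252 CPM. fabp7a itself was higher in the rich cells, at 2052 and 2150 against 909 and 1876 CPM. The factor isl2a stood at 77.4 and 94.1 against 5.88 and 16.6 CPM, six1b at 73.7 and 62.5 against 4.84 and 14.9 CPM, and neurod1 at 338 and 124 against 37.5 and 53.8 CPM. Of the enteric list, elavl4 was higher (885 and 1445 against 118 and 297 CPM). phox2bb (1144 and 1239 against 1269 and 1147 CPM) and ret (202 and 212 against 232 and 164 CPM) were not higher in both libraries. The neurofilament gene nefma reached 5.84 CPM in the scn4ab-rich cells with DMSO and 179 CPM with CVT-10216. There neflb (2.65 and 73.2 CPM) and atp1a3b (1.59 and 133 CPM) also differed between the libraries. The scn4ab-rich cells thus had more of most of these neuronal genes, though not of phox2bb and ret in both libraries, and less gfap than the fabp7a cells that were not rich. Which cells of the fabp7a gate bore its scn4ab level cannot be read from them, as many rich cells lay outside that gate.

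The beta subunits, which modulate sodium channel gating and bind neighbouring cells, ran partly beside scn4ab. The level of scn1ba (3544 UMIs) was 62.4 CPM (57.5 to 67.6) and 108 CPM (102 to 116) in the fabp7a gate, 18.9 and 25.6 CPM in the vip + galn gate, 14.0 and 42.8 CPM in the slc6a5 gate and 42.7 and 25.9 CPM in the isl1 + prph gate. In the scn4ab-rich cells, taken over all cells, scn1ba stood at 217 and 187 CPM, against 35.3 and 46.7 CPM in the fabp7a cells that were not rich. Its partner scn3b was spread over the neurons, with 38.5 and 49.1 CPM in the vip + galn gate, 26.4 and 27.1 CPM in the slc6a5 gate, 80.0 and 56.9 CPM in the isl1 + prph gate and 20.6 and 24.9 CPM in the fabp7a gate. For scn3b the intervals of the slc6a5 and fabp7a gates overlapped in both libraries, and those of the vip + galn and slc6a5 gates overlapped with DMSO alone. The beta subunit scn4bb was the only member at 10 CPM or more in the macrophage gate, apart from kcnk5a and kcnq5b, with 14.9 and 13.9 CPM there.

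**Figure D2:**
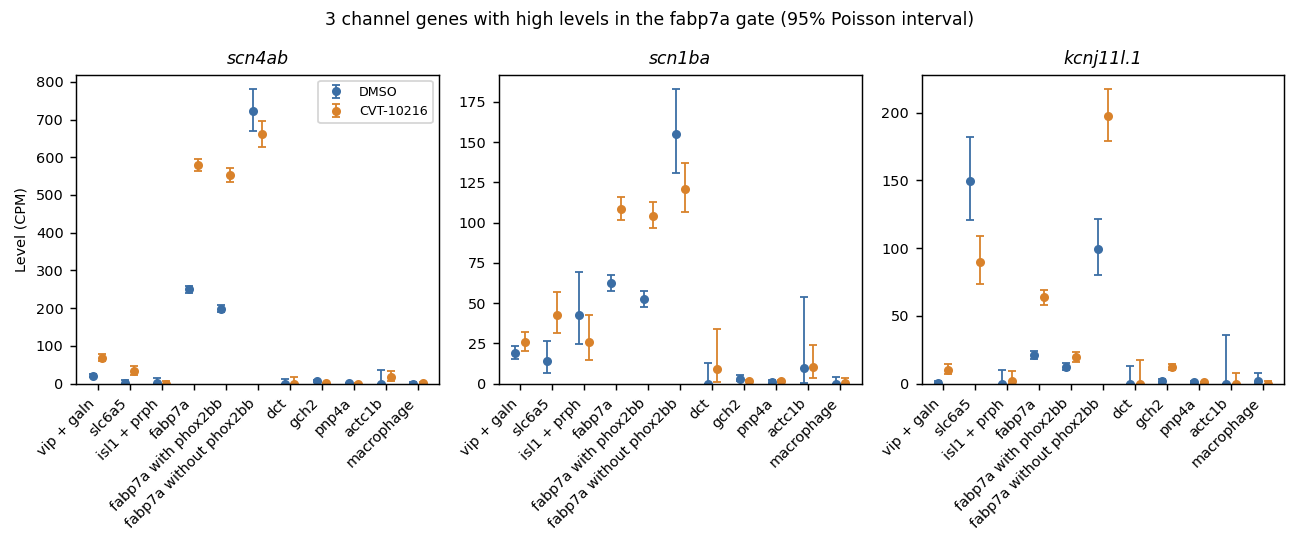
Level in CPM of scn4ab, scn1ba and kcnj11l.1 in the gates, in the fabp7a cells with and without a UMI of phox2bb, and in the macrophage background, by library (blue DMSO, orange CVT-10216; bars are 95% Poisson intervals). scn4ab reached 249.6 and 579.5 CPM in the fabp7a gate, and the kcnj11l.1 level of the slc6a5 gate came from 1 cell in each library.

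Other sodium channel pore subunits were highest in neuron gates. scn1laa (4340 UMIs), related to the human epilepsy gene SCN1A, had 194 CPM (181 to 207) and 188 CPM (172 to 205) in the vip + galn gate. Its next gate was isl1 + prph with 74.7 and 110.3 CPM, followed by slc6a5 with 35.8 and 10.5 CPM and fabp7a with 15.5 and 12.8 CPM. The first 2 of these gates had the same order in both libraries, but the fabp7a gate stood above the slc6a5 gate with CVT-10216. The vip + galn interval stood clear of all others. scn8aa, related to the mammalian channel of axon initial segments and nodes, had the reverse preference: 124 and 137 CPM in the slc6a5 gate and 176 and 99.97 CPM in the isl1 + prph gate, but 20.8 and 32.0 CPM in the vip + galn gate and 1.80 and 10.1 CPM in the fabp7a gate. Its slc6a5 and isl1 + prph intervals overlapped in both libraries. The copy scn8ab followed the same order, with 34.2 and 42.8 CPM, 88.0 and 37.9 CPM, and 6.77 and 8.54 CPM in these 3 neuron gates. scn1lab, whose loss gives seizures in zebrafish, varied less between the neuron gates, at 17.0 and 24.9 CPM (vip + galn), 32.7 and 35.0 CPM (slc6a5) and 42.7 and 20.7 CPM (isl1 + prph), with overlapping intervals save between the vip + galn and isl1 + prph gates with DMSO.

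Calcium channel genes were likewise split between the neuron types. cacna1ba, the pore of the N-type channel of presynaptic terminals, was highest in the vip + galn gate with 47.4 CPM (41.1 to 54.4) and 54.8 CPM (46.5 to 64.1), against 20.2 and 7.87 CPM in the slc6a5 gate, 32.0 and 22.4 CPM in the isl1 + prph gate and 2.22 and 4.70 CPM in the fabp7a gate. cacna1ab, the pore of the P/Q-type channel with the same role, was placed the other way, with 56.0 and 65.6 CPM in the slc6a5 gate, 50.7 and 79.3 CPM in the isl1 + prph gate, and 6.77 and 8.54 CPM in the vip + galn gate. The 2 presynaptic pore genes thus had opposite orders over the vip + galn and slc6a5 gates in both libraries. cacna1da, an L-type pore, stood at 40.4 and 22.7 CPM in the slc6a5 gate and at 5.34 and 10.3 CPM or less in the other neuron gates. The heart and smooth muscle pore cacna1c was low, with 6.31 and 7.82 CPM in the vip + galn gate and 4.67 and 3.50 CPM in the slc6a5 gate. cacna1eb, an R-type pore, was the only calcium channel pore called for the pigment pool, at 6.24 and 5.42 CPM in the gch2 gate and 1.095 and 0.711 CPM in the pnp4a gate.

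Among the calcium channel auxiliary subunits, which raise surface levels of the pore and tune its gating, cacna2d3 was the most sharply placed. Its level was 180.5 CPM (149 to 216) and 132 CPM (112 to 155) in the slc6a5 gate, where 47.2% and 47.8% of cells had a UMI. In the vip + galn gate cacna2d3 had 0.467 and 0.356 CPM, in the isl1 + prph gate 2.67 and 0 CPM, in the fabp7a gate 0.211 and 0.704 CPM, and in the macrophage gate 0 and 0 CPM, with 0% of cells there. No cell of the slc6a5 gate had more than 7 UMIs of it, so the level did not rest on a rich cell. Over the 16 sums of gate and library, the genes with the pattern most like it were slc30a2 (Pearson r = 0.97), spp1 (0.97) and nkx1.2la (0.97), as a description. The beta subunit cacnb4b followed the slc6a5 gate too, with 88.7 and 69.1 CPM against 40.0 and 36.2 CPM in the isl1 + prph gate and 5.37 and 12.8 CPM in the vip + galn gate. cacnb1, the beta subunit of skeletal muscle and also of neurons, was instead highest in the vip + galn gate at 24.5 and 39.8 CPM, and had 1 UMI in the muscle cells of each library. The gamma subunits cacng2a, cacng3b and cacng8b, relatives of the mammalian proteins that bring AMPA receptors to the synapse, reached 54.4 and 62.1, 34.2 and 29.7, and 65.3 and 54.2 CPM in the slc6a5 gate.

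Potassium channel genes differed in level between the neuron gates, and several were shared by a pair of them. In the vip + galn gate, kcnk4a, a 2-pore leak channel related to the mammalian mechanosensitive TRAAK, had 64.0 CPM (56.6 to 72.0) and 63.0 CPM (54.0 to 72.9), with a UMI in 43.9% and 43.2% of cells. In the slc6a5 gate kcnk4a had 0 and 1.75 CPM, in the isl1 + prph gate 0 and 0, in the fabp7a gate 1.27 and 1.06, and in the macrophage gate 0 and 0 CPM. The SK channel gene kcnn3 was also high in the vip + galn gate, at 45.8 and 66.9 CPM, but the isl1 + prph gate had 53.4 and 37.9 CPM of it. kcnd2, which encodes an A-type channel that delays firing, had 47.4 and 68.6 CPM in the vip + galn gate and 45.1 and 38.5 CPM in the slc6a5 gate. kcnma1a, the large-conductance calcium-activated channel, was instead highest in the slc6a5 gate (131 and 112 CPM) and the isl1 + prph gate (128 and 109 CPM), with 17.0 and 36.3 CPM in the vip + galn gate, and its 2 upper gates were not separated by their intervals. kcnc1a, a channel of fast-spiking neurons, had 109 and 103 CPM in the isl1 + prph gate, 51.3 and 50.7 CPM in the slc6a5 gate and 31.5 and 48.4 CPM in the vip + galn gate.

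The isl1 + prph gate was the smallest of the neuron gates, and its highest channel genes rested on few cells. kcnab2a, a beta subunit of voltage-gated potassium channels, had 309 CPM (256 to 371) and 81.0 CPM (59.5 to 108) there, against 21.8 and 13.1 CPM in the slc6a5 gate. Of its 116 and 47 UMIs, 72 and 30 came from 1 cell, and without that cell the level was 123 and 30.5 CPM. kcna1a, a channel of axons, had 179 and 58.6 CPM, and 35 of 67 and 14 of 34 UMIs came from 1 cell. kcnip3b, a calcium-binding partner of A-type channels, had 13.3 and 34.5 CPM, the second with 19 of 20 UMIs in 1 cell. The order of the gates was unchanged for kcnab2a without its richest cells, while the values themselves fell by more than 1.5 times.

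**Figure D3:**
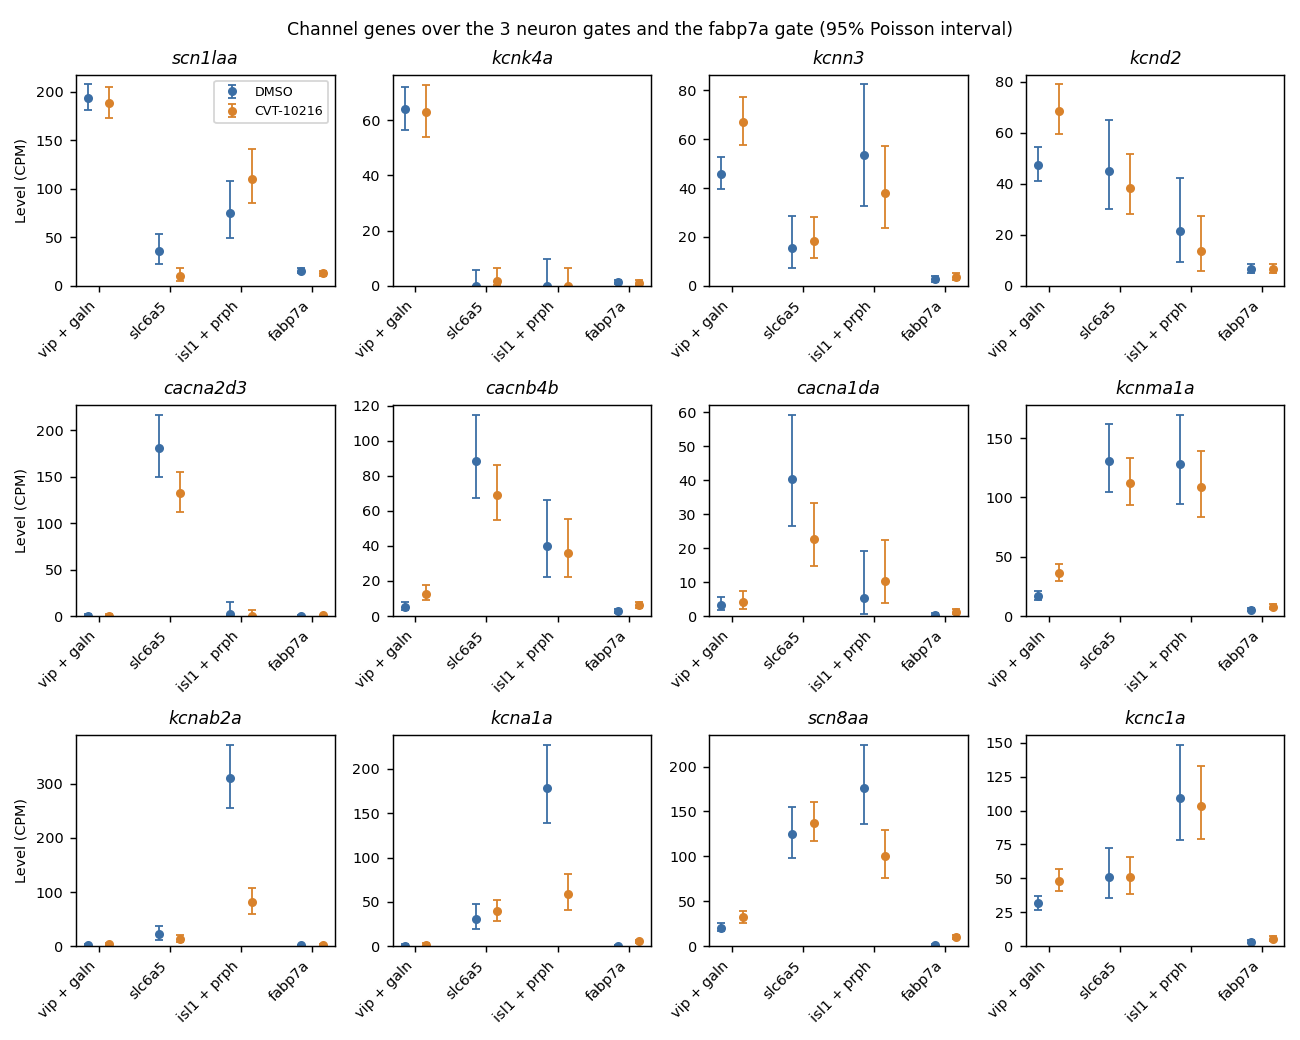
Level in CPM of 12 members over the 3 neuron gates and the fabp7a gate by library (blue DMSO, orange CVT-10216; bars are 95% Poisson intervals). The upper row holds genes grouped with the vip + galn gate such as scn1laa (194 and 188 CPM), the middle row those of the slc6a5 gate such as cacna2d3 (180.5 and 132 CPM), and the lower row those of the isl1 + prph gate such as kcnab2a (309 and 81.0 CPM). In the upper row kcnn3 was highest in the isl1 + prph gate with DMSO (53.4 against 45.8 CPM). In the lower row scn8aa was highest in the slc6a5 gate with CVT-10216 (137 against 99.97 CPM).

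Among the inward rectifiers, kcnj11l.1 (2430 UMIs), a second entry under the symbol of kcnj11l, a relative of the pore of ATP-sensitive potassium channels, was borne by very few cells. Cells with at least 10 of its UMIs numbered 13 of 4488 and 30 of 6795, and held 83.5% and 90.8% of all its UMIs. They were scattered over the gates, with 5 and 10 in the fabp7a gate, 1 and 1 in the slc6a5 gate, 0 and 2 in the gch2 gate and 5 and 11 past no gate. The slc6a5 level of 149 and 90.1 CPM came almost wholly from 1 cell in each library, with 94 of 96 and 100 of 103 UMIs. Of the 43 cells, 36 had a UMI of olig2 and 35 of nkx2.2a, both transcription factor genes of the oligodendrocyte lineage, 20 had mag and 19 had cldnk, both genes of myelin in zebrafish. In those cells olig2 stood at 695 and 471 CPM against 4.16 and 7.20 CPM in all other cells. These genes were looked up after the cells had been chosen, and the cells are not named from them. kcnj11l itself was low, with 24.9 and 21.9 CPM in the slc6a5 gate and 3.04 and 4.27 CPM in the vip + galn gate.

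kcnj10a, which encodes the potassium-buffering rectifier of mammalian astrocytes, was highest in fabp7a cells without phox2bb. Its level was 20.5 CPM (12.3 to 32.0) and 21.7 CPM (15.9 to 29.0) in those cells and 0.704 and 0.469 CPM in fabp7a cells with phox2bb. In the same cells without phox2bb, gfap stood at 1528 and 907 CPM, against 52.6 and 85.1 CPM in those with it. kcnj10a was thus highest in the fabp7a cells where gfap was higher. The other member called for the fabp7a pool, scn4ab, also had its higher CPM in fabp7a cells without phox2bb in both libraries. The share of scn4ab-rich cells went the other way. It was 14.7% and 20.1% without phox2bb and 19.6% and 38.4% with it, with overlapping intervals for DMSO. The cells without phox2bb were also shallower, with medians of 4265.5 and 5609 UMIs against 17704.5 and 13168. The neuronal genes given with scn4ab came from scn4ab-rich cells taken over all cells. In the fabp7a gate as a whole kcnj10a had only 2.64 and 5.75 CPM. kcnj10a had at most 3.11 CPM in any neuron gate, 0.0935 CPM at most in the pigment gates and 0 in the macrophage gate.

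Pigment cells had few channel genes, and those differed by pigment type. kcnj13, the rectifier behind the zebrafish stripe mutant obelix, had 78.3 CPM (49.1 to 119) and 130.5 CPM (86.7 to 189) in the dct gate and 47.6 CPM (41.7 to 54.2) and 52.5 CPM (48.3 to 57.1) in the gch2 gate. The pnp4a gate had 0.608 and 0.585 CPM of kcnj13, and the macrophage background 0 and 0.630 CPM. A UMI of kcnj13 was found in 27.1% and 39.0% of dct cells, 24.4% and 25.8% of gch2 cells, 0.893% and 0.929% of pnp4a cells, and 0% and 0.806% of macrophages. Thinned to 4000 UMIs, 8 of 30 and 4 of 16 dct cells that remained had one, and the shares were 16.4% and 17.8% of 501 and 1128 gch2 cells, and 0.550% and 0.336% of 545 and 1486 pnp4a cells. The share in the pnp4a gate was thus near the background, and those of the dct and gch2 gates were far above it.

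Most cells past the dct gate also passed the gch2 gate (311 of 413) and were therefore left out. When cells past several gates were instead placed by the marker that exceeded its minimum most, the kcnj13 level was 111 CPM (94.8 to 130.2) and 131 CPM (109.8 to 155) in the dct gate and 50.3 CPM (44.8 to 56.3) and 47.7 CPM (44.2 to 51.4) in the gch2 gate. The dct interval then lay above the gch2 interval in both libraries, whereas with the cells of 1 gate alone it did so only with CVT-10216. The genes with a pattern most like kcnj13 over the 16 sums were xkr9, rbck1 and zgc:63863 (Pearson r = 0.97 for each).

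No member was called particular to the pnp4a gate, but several potassium genes had their highest pigment level there. kcnk5b, a 2-pore channel of zebrafish whose overactive mutants grow long fins, had 35.2 CPM (31.2 to 39.5) and 44.97 CPM (42.3 to 47.7) there, 12.3 and 20.6 CPM in the gch2 gate, 17.8 and 9.32 CPM in the dct gate (5 and 2 UMIs), 4.02 and 8.33 CPM in the fabp7a gate and 6.401 and 5.67 CPM in the macrophage background. A UMI of kcnk5b was found in 33.8% and 42.3% of pnp4a cells, and in 5.62% and 4.84% of macrophages. After thinning these shares were 13.4% and 15.9%, and 2.53% and 1.75%. Its copy kcnk5a had 20.3 and 20.4 CPM in the pnp4a gate but 11.7 and 10.7 CPM in the macrophage gate, so the gap to the macrophages was narrower. kcnab1b, a potassium channel beta subunit, had 12.0 and 16.4 CPM in the pnp4a gate, 2.70 and 2.62 CPM in the gch2 gate and 0 and 0.630 CPM in macrophages. kcnd1, an A-type channel, had 7.91 and 6.27 CPM in the pnp4a gate, below its 50.7 and 37.9 CPM in the isl1 + prph gate. kcnc2 had 2.92 and 1.84 CPM in the pnp4a gate and was at 0 in the vip + galn and dct gates of both libraries.

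**Figure D4:**
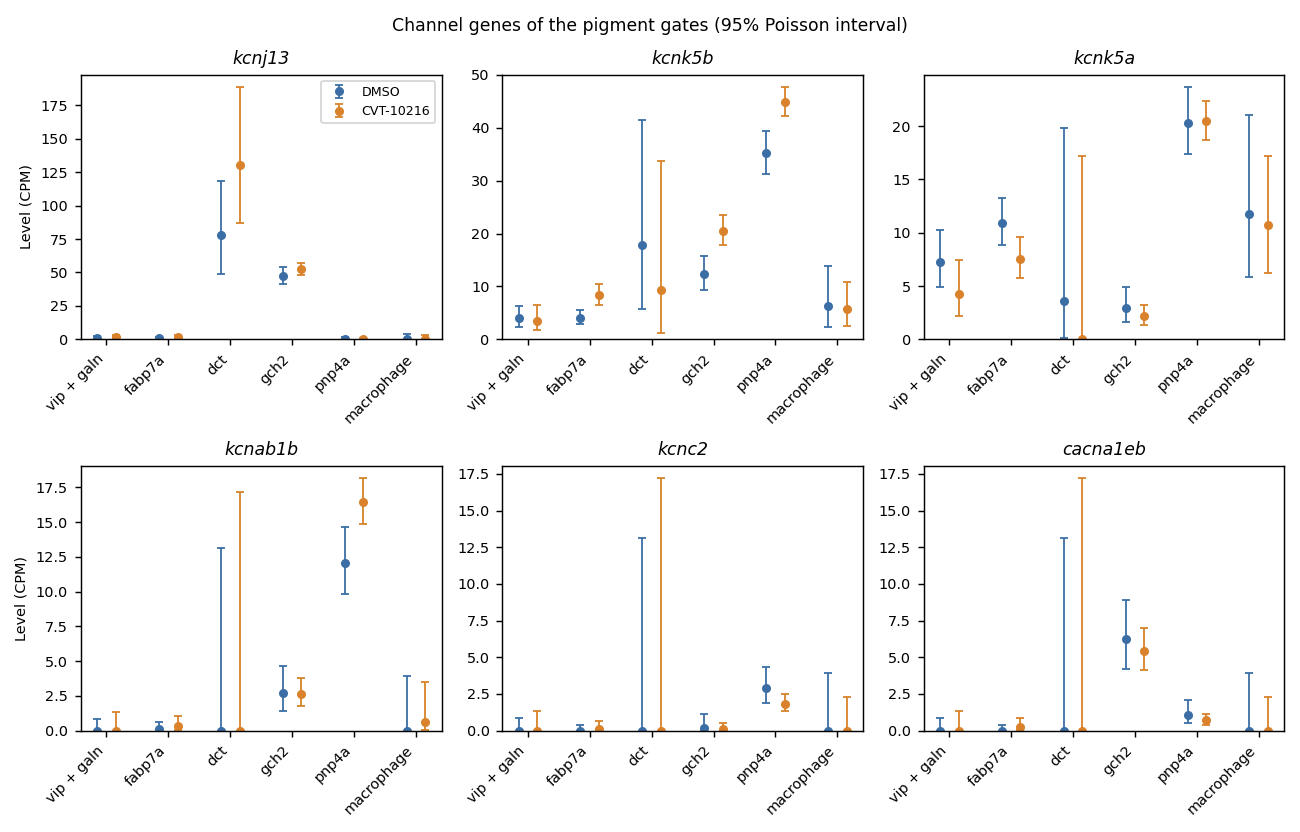
Level in CPM of 6 members in the vip + galn, fabp7a, pigment and macrophage gates by library (blue DMSO, orange CVT-10216; bars are 95% Poisson intervals, wide in the dct gate with 59 and 41 cells). kcnj13 stands in the dct and gch2 gates and is near 0 in the pnp4a gate, whereas kcnk5b (35.2 and 44.97 CPM), kcnk5a and kcnab1b are highest in the pnp4a gate.

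The muscle cells were too few for most members. cacng1a, the gamma subunit of the skeletal muscle calcium channel, had 58.2 CPM and 143 CPM (111 to 181) in the actc1b gate and at most 1.75 CPM in any other gate. The 6 UMIs with DMSO came from 1 of 4 cells, and the 69 UMIs with CVT-10216 from 15 of 22 cells. The muscle pore genes cacna1sa and cacna1sb had 12 and 32 UMIs in all cells and did not reach the minimum, nor did kcnh2a with 6 and kcnq5a with 46 UMIs. scn4aa was not analysed here, as the filtered table has no row for it. At the minimum itself, kcnc3b (50 UMIs) and kcnh8 (51 UMIs) were just inside, and cacnb2b and kcnk2b (48 UMIs each) just outside.

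The same pathway was read from 50 partner genes, of which 44 were in the table and 33 had at least 50 UMIs. Of these 33, 15 were particular to the neuron pool with muscle left out, 1 to the fabp7a pool and 0 to the pigment pool, beside 5.6%, 0.402% and 3.34% of all genes. The neuronal ones included fgf13b, a fibroblast growth factor homologue that binds sodium channels (129 and 164 CPM in the vip + galn gate), ank3a, an anchor of sodium channels at the initial segment (106 and 129 CPM in the slc6a5 gate), the sodium leak channel gene nalcn, and atp1a3a, the neuronal sodium pump (661 and 588 CPM in the slc6a5 gate). The sodium pump gene atp1a1b was the partner of the fabp7a pool, with 50.02 and 92.5 CPM in the fabp7a gate against at most 25.4 CPM elsewhere. With muscle in, 4 of the 33 partners were particular to the actc1b gate, beside 0.696% of all genes. These were ryr1a, ryr1b, stac3 and atp2a1, which release, couple or take up calcium in skeletal muscle, with ryr1a at 281 and 172 CPM. The calcium release genes were thus seen in the muscle cells although the muscle calcium pores were not among the members.

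Levels were then compared between CVT-10216 and DMSO within each gate, for members with at least 20 UMIs in both libraries together. A member was called where the libraries differed at least 2-fold and the exact interval of the ratio did not include 1. These calls compare 2 libraries and not the conditions, and the interval covers counting error only. The gates also lost unequal shares of their cells to overlap in the 2 libraries, and the part of this in the ratios was not tested. Of 208 pairs of member and gate, 38 were called higher and 9 lower with CVT-10216. Of the higher calls, 21 came from the fabp7a gate, where 47 members were compared and 0 were lower, beside 11.3% of all genes called higher there and 0.582% lower. The median of the 47 members was 0.80 on the log2 scale, against 0.11 for all 13407 genes compared.

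In the fabp7a gate scn4ab was higher with CVT-10216 by 1.22 on the log2 scale (interval 1.14 to 1.29), from 2360 and 4937 UMIs, and kcnj11l.1 by 1.59 (1.36 to 1.84). For kcnj11l.1, 5 and 10 cells held 182 of 199 and 476 of 542 UMIs. Without its richest cells its ratio was 2.01 (1.72 to 2.31). The largest ratio was that of the beta subunit scn4bb, at 4.24 (2.18 to 10.15) from 1 and 25 UMIs. Of the 25 UMIs 9 lay in 1 cell, and without the richest cells the gene had too few UMIs to be called. The level of scn4bb was also high in the macrophage gate (14.9 and 13.9 CPM), and the macrophage list summed to 3.17 and 63.7 CPM in the fabp7a gate, whose part in the ratio was not tested. The ratio of scn4bb was followed by scn4ba, another beta subunit, at 3.25 (1.92 to 5.35) from 4 and 38 UMIs, and by kcna1a at 2.78 (1.71 to 4.26) from 7 and 46 UMIs. The neuronal pores scn8ab (2.62) and scn8aa (2.46) and the A-type channel partner kcnip1b (2.08) were also higher. These genes had low levels in the gate, such as 0.740 and 5.40 CPM for kcna1a and 0.740 and 4.81 CPM for scn8ab. In the slc6a5 gate kcna1a had 31.1 and 39.3 CPM, and scn8ab 34.2 and 42.8 CPM. In the isl1 + prph gate kcna1a had 179 and 58.6 CPM, and scn8ab 88.0 and 37.9 CPM. The gap was not seen for kcna1a in the vip + galn gate, which held 1.17% of its UMIs, and was smaller there for scn8ab. Of the partner genes, 10 of 18 compared in the fabp7a gate were higher and 0 lower.

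Several measures of what the fabp7a gate held moved with these values. The isl1 + prph neuron list (13 of 13 genes with a UMI in both libraries), which did not mark the isl1 + prph gate alone, summed to 181 and 484 CPM there. The slc6a5 neuron list (8 of 8) summed to 455 and 815 CPM and the muscle list (11 of 11) to 49.6 and 190.3 CPM. The rise of the muscle list was not particular to this gate. It was higher with CVT-10216 in every gate, such as 167 and 415 CPM in the gch2 gate and 74.7 and 205 CPM in macrophages. The slc6a5 list was also higher in the vip + galn gate (2263 and 3335 CPM) but lower in the slc6a5 gate (12532 and 10154 CPM). The macrophage list (8 of 8) summed to the levels given above, and no defining marker of these lists was at 0. The share of scn4ab-rich cells was 17.8% and 29.2%, and the cells without a phox2bb UMI numbered 170 of 482 and 298 of 592. In the fabp7a cells with phox2bb 12 of 32 members were higher, beside 6.36% of all genes, and in those without it 5 of 20 were higher, beside 5.68%. There scn4ab differed by 1.48 (1.40 to 1.56) with phox2bb, and its levels without phox2bb were 723 and 661 CPM. Without each gene's richest cell 19 of 38 members were higher and 0 lower, beside 1378 of 12867 genes called in either direction. The part of the gate's makeup in these differences was not tested, and fewer cells of a type and less RNA per cell cannot be told apart in such sums.

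**Figure D5:**
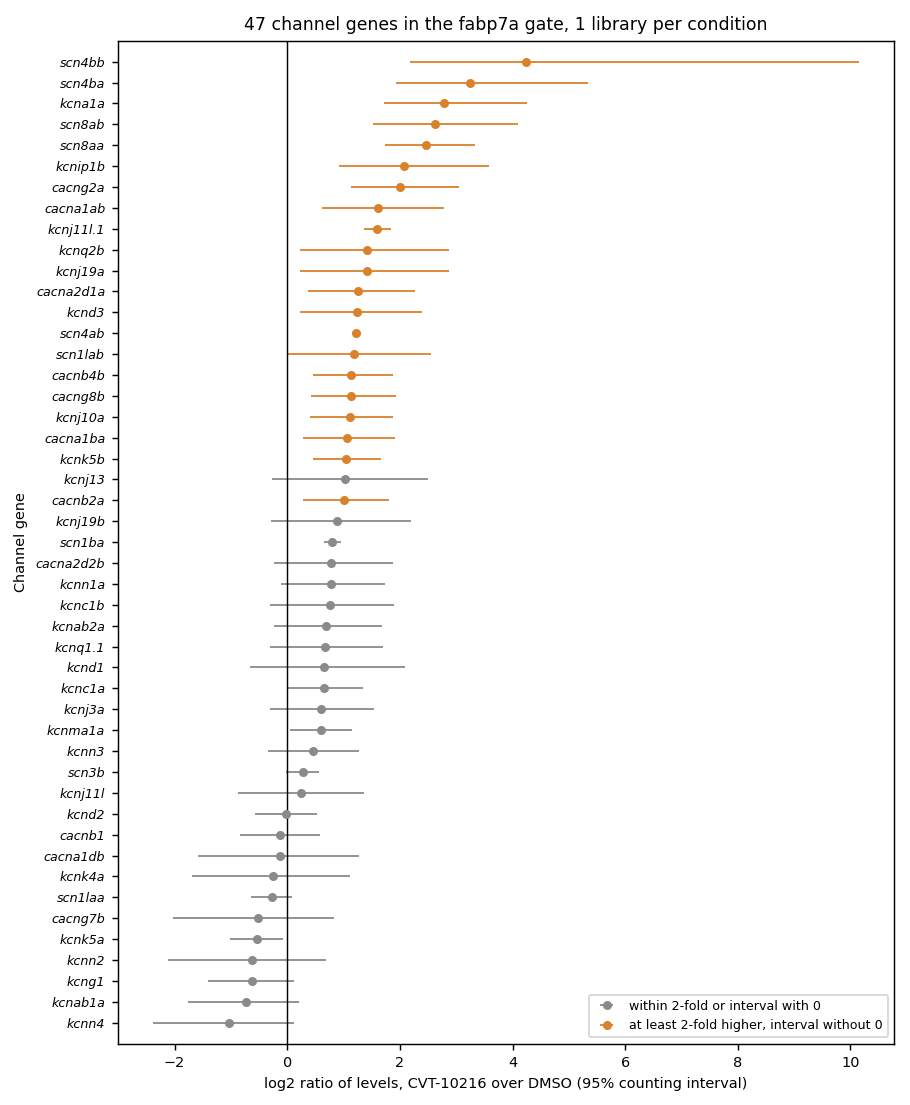
Ratio of CVT-10216 to DMSO on the log2 scale for the 47 members compared in the fabp7a gate (points), with exact 95% intervals (bars). Orange points are the 21 members at least 2-fold higher with an interval clear of 0, none is that much lower, and scn4bb (4.24, not called without its richest cell), scn4ba (3.25) and kcna1a (2.78) have the largest ratios.

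The other gates gave smaller counts. In the vip + galn gate 9 of 49 members were higher and 0 lower, beside 4.07% and 1.18% of all genes compared. The largest ratios there were those of kcnj11l.1, at 3.68 (2.19 to 6.24) from 3 and 29 UMIs with 17 of the 29 in 1 cell, of scn4ab, at 1.73 (1.36 to 2.11), and of the beta subunit scn2b, at 1.34 (0.16 to 2.66). kcnma1a was also higher, at 1.09 (0.64 to 1.54), whereas scn1laa, the leading pore of this gate, had near-equal levels of 194 and 188 CPM. In the slc6a5 gate 2 of 39 members were higher and 2 lower, beside 4.24% and 2.01% of genes. scn1ba was higher by 1.55 (0.57 to 2.82), and scn4ab by 3.85 (1.85 to 9.76) with 32 of its 38 UMIs in 1 cell. scn1laa was lower, at -1.74 (-2.91 to -0.70), and so was cacna1ba, at -1.34 (-2.77 to -0.02).

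In the isl1 + prph gate 1 of 24 members was higher and 3 lower, beside 4.93% and 2.92% of genes. cacna2d1a, an alpha2delta subunit, was higher by 1.14 (0.10 to 2.45). kcnab2a was lower, at -1.92 (-2.45 to -1.43), as were kcna1a, at -1.60 (-2.25 to -0.99), and scn8ab, at -1.20 (-2.06 to -0.39). A single cell held 62.1% and 63.8% of the kcnab2a UMIs there, 52.2% and 41.2% of those of kcna1a, 33.3% and 27.3% of those of scn8ab and 33.3% and 15.6% of those of cacna2d1a. All 4 calls were made again without these cells.

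In the pigment gates few members were called. The gch2 gate had 3 of 27 higher and 3 lower, beside 3.58% and 2.35% of genes. cacng3b was higher by 2.88 (0.81 to 8.79), kcnj11l.1 by 2.82 (1.88 to 4.14) with 99 of 133 UMIs in 1 cell, and cacng4a by 2.02 (0.28 to 5.44). scn4ab was lower, at -2.51 (-3.70 to -1.51), scn1laa at -1.69 (-2.84 to -0.61) and cacna1ba at -1.66 (-3.09 to -0.35), all 3 at 6.03 CPM or less. The enteric neuron list summed to 509 and 219 CPM in the gch2 gate, and its part in these ratios was not tested. The pnp4a gate had 1 of 20 members higher and 1 lower, beside 2.64% and 2.37% of genes. kcnip3b had 0 and 30 UMIs there, and cacnb2a, a calcium channel beta subunit, was lower, at -1.61 (-2.26 to -0.96). In the dct gate 1 member could be compared and 0 were called, beside 5.19% of genes higher and 3.2% lower. In the actc1b gate the single member compared, cacng1a, was higher by 1.19 (0.10 to 2.79), beside 6.11% of genes higher and 11.7% lower. DMSO gave 4 cells there. The muscle list summed to 17653 and 31083 CPM in that gate, the epithelium list to 4585 and 164 CPM and the iridophore list to 1134 and 342 CPM. The part of these sums in the ratio was not tested.

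The leading genes of the pigment gates were not among these. kcnj13 had overlapping intervals between the libraries in both the dct and the gch2 gates, and kcnk5b had 35.2 and 44.97 CPM in the pnp4a gate, a difference under 2-fold. Without each gene's richest cell, 38 of the 47 calls were made again in the same direction and 9 were not, 7 of them because fewer than 20 UMIs remained. The 9 were kcnj11l.1 and kcnk10a in the vip + galn gate, cacna1ba and scn4ab in the slc6a5 gate, kcnq2b and scn4bb in the fabp7a gate, and cacna1ba, cacng4a and kcnj11l.1 in the gch2 gate.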

How the data were processed

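The authors made reads into UMI counts per gene and barcode with Cell Ranger 3.1.0 (the submitters' processing notes also name 2.1.1) on GRCz11 with Ensembl 94 annotation and entries for GFP and mCherry, aggregated both libraries, and deposited the counts unscaled, before and after their cell filter (5394 and 7966 barcodes, 4488 and 6795 cells). The filtered counts were used. Whether aggregation equalised depth is not given in the sources used here. The library was read from the barcode suffix, 1 for DMSO and 2 for CVT-10216, since the cells with each suffix number as the study's methods give for each group.

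Counts were summed per gate and library and divided by the gate's UMIs (CPM). Intervals were exact Poisson, Clopper-Pearson or conditional at 95%, and cover counting error only. Ratios used a pseudocount of 0.5. Thinned shares used cells with at least 4000 UMIs. No doublet caller was run. With 1 library per condition no test was possible. Alternatives were other gate minimums, placement, scaling (TMM, edgeR 4.0.16), cell weighting, depth limits and thresholds. Analysis used Python 3.11.15, numpy 2.4.6, scipy 1.17.1, pandas 2.3.3 and R 4.3.3. The counting scripts were tested on simulated data.

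Genes named were members particular to a gate or pool, the 6 with most UMIs, up to 3 per direction and gate between conditions, those nearest the minimum, 19 fixed by name, and partners. Members and lists were chosen with earlier results of these data known.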

Additional observations from a re-analysis of the deposited data

Results flagged for a closer look

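A few symbols in the table are written in capitals and so fell outside the symbol rule, although they name channel genes. Of 12 such symbols, 4 had at least 50 UMIs in all cells, with 333 for KCNIP4, 301 for KCNV1, 118 for KCNB2 and 75 for CACNA2D1. They were highest in neuron gates. KCNV1, a silent subunit of voltage-gated potassium channels in mammals, had 21.3 and 6.89 CPM in the isl1 + prph gate, KCNB2 13.3 and 12.1 CPM in the same gate, and KCNIP4 5.34 CPM in the isl1 + prph gate with DMSO and 12.4 CPM in the vip + galn gate with CVT-10216.

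Some members were called in opposite directions between CVT-10216 and DMSO in different gates, as log2 ratios. scn4ab had 1.73 in the vip + galn gate, 3.85 in the slc6a5 gate and 1.22 in the fabp7a gate but -2.51 in the gch2 gate. kcna1a had 2.78 in the fabp7a gate and -1.60 in the isl1 + prph gate, and scn8ab 2.62 and -1.20 in the same gates. cacna1ba had 1.06 in the fabp7a gate but -1.34 in the slc6a5 gate and -1.66 in the gch2 gate, and cacnb2a 1.01 in the fabp7a gate and -1.61 in the pnp4a gate. The differences between gates were not tested. Without each gene's richest cell the values of scn4ab in the slc6a5 gate and of cacna1ba in the slc6a5 and gch2 gates were no longer called.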

How the results depend on the processing

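No paired analysis was possible because each condition had 1 library. The count of members particular to a gate (3) was 1 without cells above the 98th percentile of UMIs, 0 after thinning to 4000 UMIs, 5 at 2-fold and 1 at 8-fold, and between 2 and 4 under the other alternatives, with TMM scaling giving 3. The count particular to a pool (2) was 4 with cells weighted equally, 1 without those deepest cells, 4 with all unfiltered barcodes, 0 after thinning, 5 at 2-fold and 1 at 8-fold. Without the muscle gate it was 54, and 44 with the floor of 3 UMIs applied to the next gate only. The count of calls between CVT-10216 and DMSO (47) was 11 after thinning and 23 with at least 50 UMIs, and between 34 and 68 under the others. At this depth members near the minimum of 50 UMIs could not be placed.

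Of 231 values of single members over the highest of the other larger gates under 9 alternatives, 168 moved by less than their counting interval, 58 moved by more and 5 changed sign, all as log2 ratios. These were kcnc2 in the pnp4a gate with CVT-10216 at 0.5 times each gate minimum (-0.43), kcnj11l.1 in the slc6a5 gate with CVT-10216 with equal cell weights (-1.08) and after thinning (-0.34), kcna1a in the isl1 + prph gate with CVT-10216 with equal weights (-0.19), and cacna1eb in the gch2 gate with DMSO after thinning (-1.24). The cause was not tested. The alternatives without the muscle gate, without richest cells, with the floor for the next gate only and with the fabp7a gate split by phox2bb were chosen after the data were seen.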
